A study of Mus musculus with 23 samples.

Results

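Motor proteins of the kinesin, dynein and myosin families were followed at the RNA level in sorted cells of Met1-iRFP breast tumours. The 92 genes are all entries of the count table whose symbol begins with Kif and a digit or c, with Dync, or with Myo or Myh and a digit, out of 48397 symbols. They comprise 46 kinesin, 7 dynein and 39 myosin symbols, of which 14 are class II heavy chains (Myh) and 25 unconventional myosins (Myo). The rule also takes in 5 entries that encode no motor, namely the kinesin-binding protein gene Kif1bp, the antisense gene Kif16bos and the pseudogenes Kif22-ps, Kif4-ps and Kifc5c-ps. Kif2b and Myh6 had no count in any library. After a filter on low counts, 66 genes were tested in cancer cells, 67 in cells of the tumour microenvironment (TME) and 70 over all libraries, and 22 were tested in none.

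Met1 is a mouse mammary carcinoma line, which here carries the gene of iRFP, a fluorescent protein read in the near infrared. The tumours were carried by FVB mice that were either sedentary or exercised, and each was sorted into iRFP-positive cells, labelled cancer cells, and iRFP-negative cells, labelled TME. The 23 RNA-seq libraries of polyA RNA form 4 groups, with 8 of sedentary cancer cells, 7 of exercised cancer cells, 4 of sedentary TME cells and 4 of exercised TME cells. All mice share the strain, and the labels give no age, kind of exercise or duration. Whether the libraries of a group stem from different mice is not stated in the labels, and the p-values measure the spread between libraries only.

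Kinesins and cytoplasmic dynein walk along microtubules, kinesins mostly towards the plus end and dynein towards the minus end. Some kinesins carry organelles and vesicles, and others build the mitotic spindle or the cleavage furrow and are made mainly by dividing cells. Myosins pull on actin, with class II forming contractile filaments and the unconventional classes moving membranes or holding them to the cortex.

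The promoters of the mitotic kinesins are shown first, because this class was the largest in which every called gene was higher in cancer cells. Genes of G2 and M phase often carry a cell cycle genes homology region (CHR, searched as TTTGAA), which is bound by the MuvB complexes, beside a box for the factor NF-Y (searched as CCAAT). In RefSeq windows of 300 bases on GRCm38.p6, from 250 before to 50 after the start site, 11 of 12 mitotic kinesin promoters held the CHR letters on either strand (91.7%), against 17.9% of all 32817 windows. Both motifs were found in 8 of 12 (66.7%), against 6.94% of all windows. Of 24 other G2 and M phase genes, 19 held the CHR letters (79.2%) and 17 held both (70.8%). None of the 5 windows of cytoplasmic dynein-1 genes held either motif. Of all 92 members, 72 had a window. A match is a run of letters and not a measured site.

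Below are 4 of these windows, on the strand of the gene, with CHR and NF-Y box letters in capitals. Kif20b and Kif23 had the smallest p in the exercise comparison among mitotic kinesins, and Kif11 and Kif4 are among those with the widest difference between sorts. The windows are chr19:34922108-34922407 (plus strand) for Kif20b, chr9:61946750-61947049 (minus strand) for Kif23, chr19:37376132-37376431 (plus strand) for Kif11 and chrX:100625815-100626114 (plus strand) for Kif4.
Kif20b: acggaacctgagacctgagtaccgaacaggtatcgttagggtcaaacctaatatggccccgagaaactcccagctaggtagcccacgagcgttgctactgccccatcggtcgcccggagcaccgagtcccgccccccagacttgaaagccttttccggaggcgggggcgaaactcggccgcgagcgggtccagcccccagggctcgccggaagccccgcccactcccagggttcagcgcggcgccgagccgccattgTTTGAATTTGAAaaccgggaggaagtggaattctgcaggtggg
Kif23: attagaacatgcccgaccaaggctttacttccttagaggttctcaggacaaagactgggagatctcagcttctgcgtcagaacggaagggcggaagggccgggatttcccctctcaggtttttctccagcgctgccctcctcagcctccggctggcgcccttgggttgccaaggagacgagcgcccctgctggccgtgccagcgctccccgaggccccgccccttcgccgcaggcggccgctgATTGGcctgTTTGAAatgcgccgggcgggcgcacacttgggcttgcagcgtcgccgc
Kif11: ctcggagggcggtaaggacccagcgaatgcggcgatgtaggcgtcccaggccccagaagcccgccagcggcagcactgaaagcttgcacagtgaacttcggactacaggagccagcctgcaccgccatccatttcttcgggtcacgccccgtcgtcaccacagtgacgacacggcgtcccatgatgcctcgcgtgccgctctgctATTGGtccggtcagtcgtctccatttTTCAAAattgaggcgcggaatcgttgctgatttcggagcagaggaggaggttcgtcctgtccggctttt
Kif4: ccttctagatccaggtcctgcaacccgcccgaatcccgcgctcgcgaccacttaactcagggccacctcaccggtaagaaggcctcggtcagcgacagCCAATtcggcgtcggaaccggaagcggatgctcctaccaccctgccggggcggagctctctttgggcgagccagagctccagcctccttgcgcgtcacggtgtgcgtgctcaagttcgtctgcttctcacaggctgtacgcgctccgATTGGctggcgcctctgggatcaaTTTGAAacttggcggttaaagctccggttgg
In Kif11 the NF-Y box began at -45 and the CHR at -19, 26 bases apart, counted from the start site as 0. In Kif23 the positions were -7 and 2. Kif4 had boxes at -152 and -5 and the CHR at 19, and its window, like the others, was read on both strands. Kif20b had 2 CHR matches in a row, at 7 and 13, and no CCAAT letters. Kif18a, which showed the widest difference between sorts of the class, held neither. No match overlapped another in these 4 windows. The core letters of a PU.1 site, a factor of myeloid cells (searched as GAGGAAGT), were in 3.2% of all windows and in 0 of 9 windows of class I myosin genes.

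**Figure D1:**
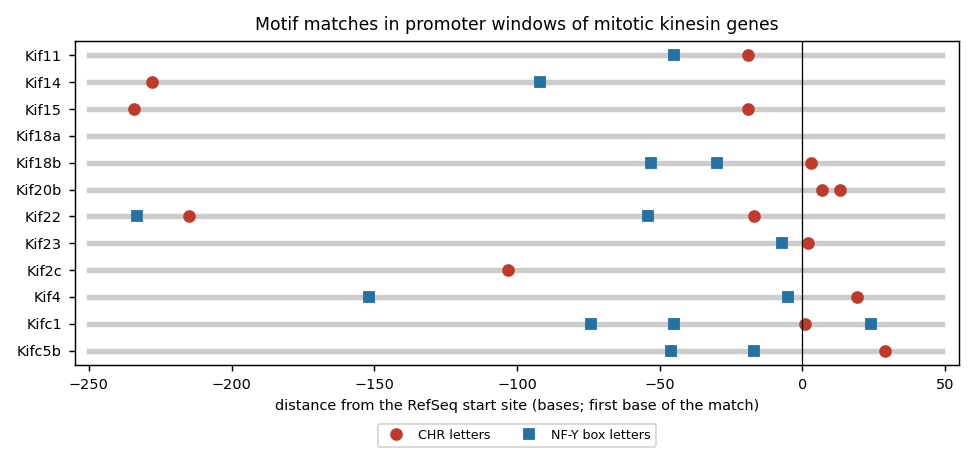
Each grey line is the promoter window of 1 of 12 mitotic kinesin genes, plotted by distance from the RefSeq start site in bases, with red circles for CHR letters and blue squares for NF-Y box letters on either strand. The CHR letters lie within 30 bases of the start site in 9 of the 12 windows, and Kif18a has no mark.

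Library depth ranged from 15924340 to 37388479 counts. Mitochondrial transcripts took 42.2% and 14.5% of counts in sedentary TME libraries 4 and 6, against 1.86% to 8.63% in the other 21. Results on TME cells are therefore also given without these libraries where a call changed. The markers of 10 leukocyte genes summed to 28.1 to 112.7 CPM (counts scaled to a common library size, with TMM factors) in cancer libraries and to 243.2 to 1583 in TME libraries, and all 10 were lower in cancer cells. Epithelial markers did not part the sorts. Their sums were 61.9 to 127.2 CPM in cancer and 47.9 to 107.0 in TME libraries, and of 4 tested 1 was higher and 1 lower in cancer cells. The iRFP label of the cancer sort therefore has no check from epithelial genes.

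Transcript length moved with the difference between sorts and with both exercise effects. The merged exons of the tested motor genes had a median length of 7.13 kb, against 3.69 kb over all genes tested. All genes were put into 4 bins of equal number by this length. In the contrast of cancer with TME cells the bin of longest genes, from 6.07 kb, had a median of 0.22 log2 with 68.1% past the threshold, and the bin of shortest genes had -0.19 with 37.9%. For exercise in cancer cells the median ran from -0.09 in the bin of shortest to 0.04 in the bin of longest genes, and for exercise in TME cells from -0.07 to 0.06. Counts over the motor genes are read against these bins as well as against all genes, and the part of length in them was not tested. This split was chosen after the data were seen.

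Of the motor genes that differed between the sorts, most were higher in cancer cells, among them Dync1h1, Kif18a and Kif5b. The widest differences ran the other way, in Myo1f, Myo1g and Myo7a. Over all libraries, 48 of 70 tested motor genes differed between the sorts (68.6%), against 52.6% of all 17503 genes. By edgeR's quasi-likelihood test with Benjamini-Hochberg adjustment at 0.05, 36 motor genes were higher in cancer cells (51.4%), against 27.3% of all genes, and 12 were lower (17.1%), against 25.3%. Their median was 0.30 log2, against 0.01 over all genes. The share called was near that of the longest genes (68.1%, in the bin that holds 45 of the motor genes). Within that bin the motor genes had a median of 0.38, against 0.22 for the bin. In bulk samples fewer cells of a type and less RNA per cell cannot be told apart. Without sedentary TME libraries 4 and 6, 40 of 72 motor genes were called, beside 42.9% of all genes. Of these 40, 28 were higher and 12 lower, and 39 were among the 48. The 9 lost calls were Dync1li1, Dync2li1, Kif13a, Kif14, Kif18b, Kif23, Kif2c, Kif3b and Myo5c.

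**Figure D2:**
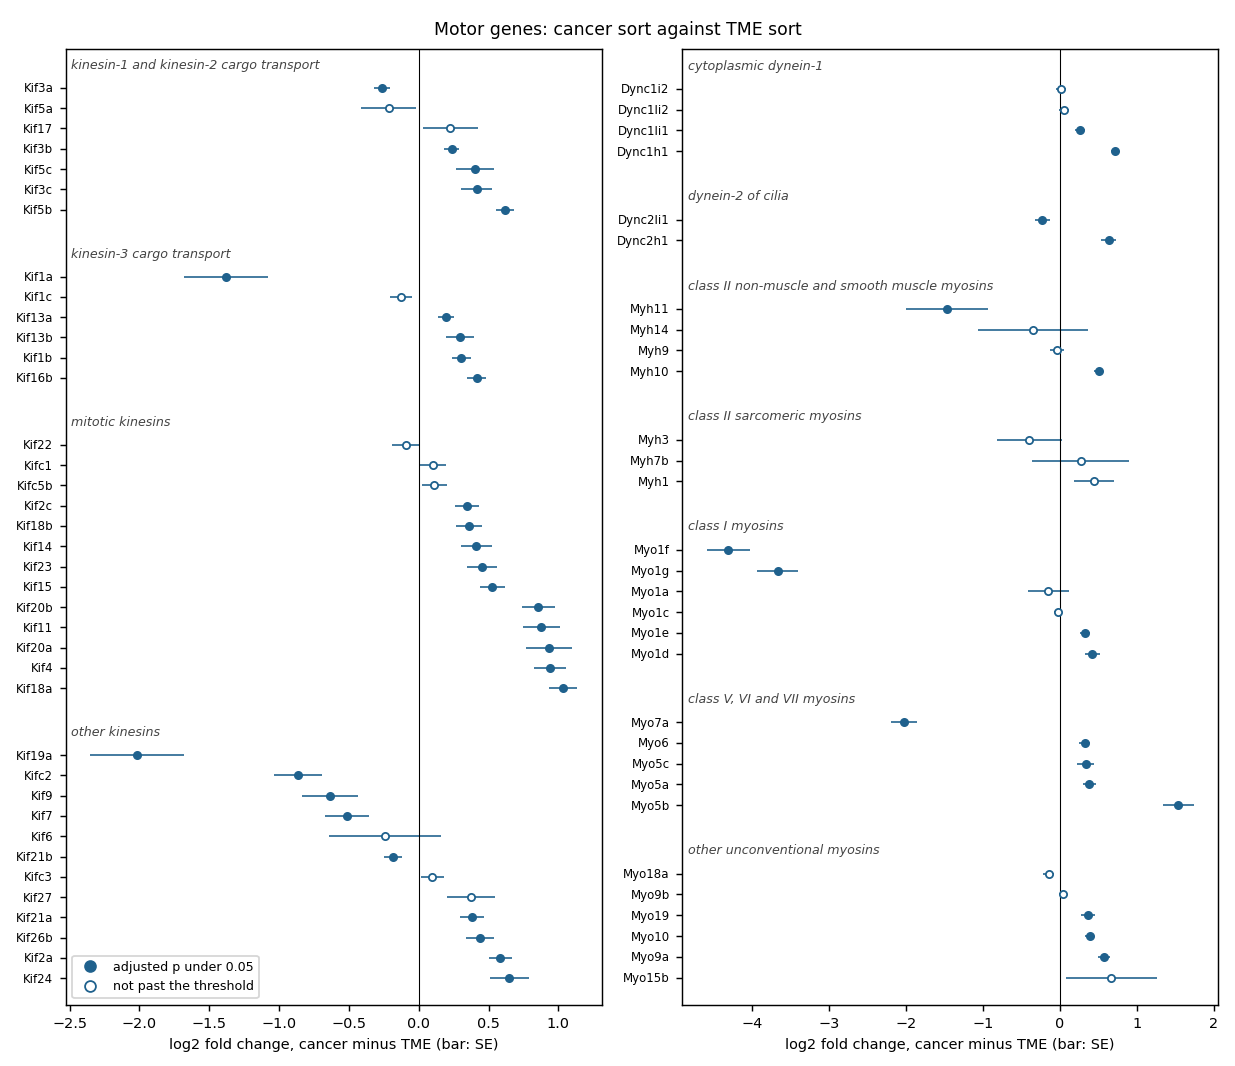
Log2 fold change of cancer minus TME cells with its SE for 68 tested motor genes, by class; filled points passed an adjusted p of 0.05. Mitotic kinesins lie right of 0 except Kif22, and Myo1f, Myo1g and Myo7a lie farthest left among myosins.

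Mitotic kinesins were higher in cancer cells in 10 of 13 genes (76.9%) and lower in none, with a median of 0.45 log2. Over all genes 27.3% were higher and 25.3% lower. Kif14, Kif18b, Kif23 and Kif2c lost their calls without sedentary TME libraries 4 and 6. Kif18a, which dampens chromosome movements at the spindle equator, had 22.5 to 31.9 CPM (median 24.7) in sedentary and 20.8 to 35.9 CPM (median 30.6) in exercised cancer cells. In TME cells it had 9.07, 11.1, 14.8 and 11.1 CPM in the sedentary libraries 4, 6, 9 and 10 and 13.6, 18.2, 19.3 and 13.7 in the exercised libraries 7, 8, 9 and 10. Every cancer library was above every TME library, with a difference of 1.04 ± 0.10 log2 (edgeR adjusted p = 1.83e-09).

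Kif4, a chromokinesin of the spindle midzone, likewise did not overlap between sorts, from 36.4 to 63.2 and 39.4 to 69.3 CPM in cancer cells to 19.7 to 32.0 and 20.5 to 33.9 in TME cells (0.94 ± 0.11). Its exons overlap those of Pdzd11 on the other strand by 832 bases. Kif20a, a kinesin of the cleavage furrow, stood at 0.93 ± 0.17, and 1271 bases of its exons are shared with Cdc23 on the other strand. Kif11, the plus-end motor that pushes spindle poles apart, stood at 0.88 ± 0.13, and the midzone kinesin Kif20b at 0.86 ± 0.12. Kif15, Kif23, Kif14, Kif18b and Kif2c were higher by 0.35 to 0.53. Kif22 (-0.09 ± 0.10), Kifc1 (0.10 ± 0.09) and Kifc5b (0.11 ± 0.09) did not pass. Kifc1 and Kifc5b are near-identical copies that may share reads.

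The mitotic kinesins moved beside other genes of cell division. Among 24 non-motor genes of these phases 18 were higher in cancer cells (75%) and none lower, against 27.3% and 25.3% of all genes. The median of the 24 was 0.50 log2. Anln, a scaffold of the contractile ring, stood at 1.09 ± 0.08, and Ect2, which activates RhoA there, at 1.36 ± 0.12. The kinesin-like Cenpe, whose symbol lies outside the rule, stood at 0.75 ± 0.10. The summed level of the 13 mitotic kinesins was 569.9 to 803.3 CPM in sedentary cancer cells, 588.1 to 890.8 in exercised cancer cells, 371.5 to 588.4 in sedentary TME cells and 378.9 to 614.4 in exercised TME cells. Only sedentary TME library 9 and exercised TME library 8, the highest of their groups, reached into the cancer range. The G2 and M phase genes summed highest in the same libraries of the TME.

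**Figure D3:**
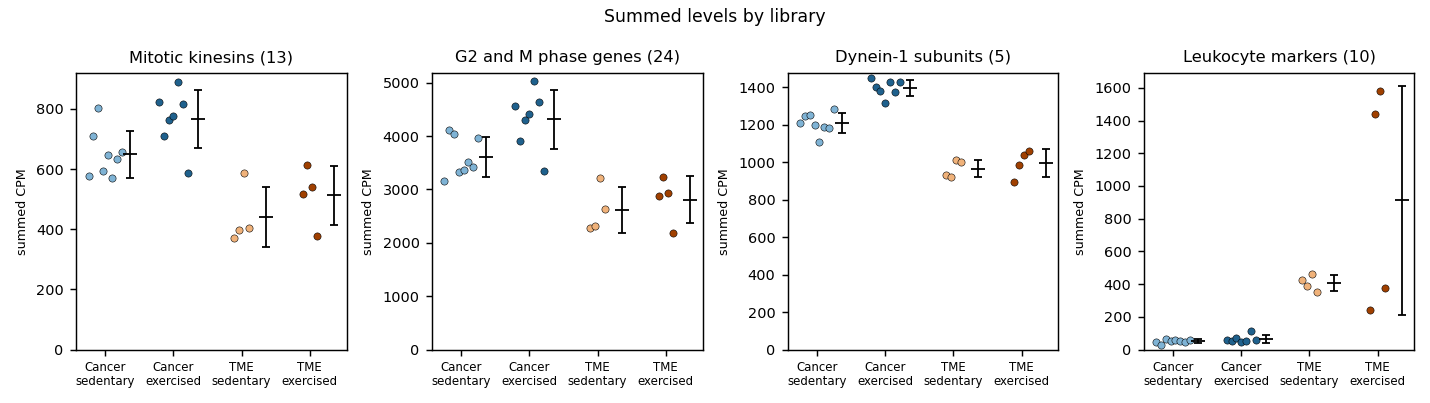
Summed CPM in each library of the 13 mitotic kinesins, 24 other G2 and M phase genes, 5 dynein-1 subunit genes and 10 leukocyte markers, with the mean and SD of each group in black. Cancer libraries lie mostly above TME libraries in the first 3 sums, and exercised TME libraries 8 and 9 stand apart in the leukocyte markers.

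Among kinesin-1 genes the ubiquitous Kif5b carried most of the signal, and it was higher in cancer cells. Kif5b, on chromosome 18, had 321 to 418 CPM (median 365) and 364 to 458 CPM (median 389.8) in sedentary and exercised cancer cells. In TME cells it had 223, 197, 249.6 and 231 CPM in the sedentary and 259, 277, 255 and 304 in the exercised libraries. The sorts did not overlap, and the difference was 0.62 ± 0.06 log2 (edgeR adjusted p = 5.62e-09). Kif5b made up 95.1% ± 0.68 of kinesin-1 counts in sedentary (SD, n = 8) and 95.2% ± 0.68 in exercised cancer cells (n = 7), and 92.8% ± 2.41 and 94.4% ± 0.74 in TME cells (n = 4 each). The neuronal forms Kif5a and Kif5c shared the rest, and Kif5c was higher in cancer cells (0.40 ± 0.14), a call lost without exercised TME library 8 or sedentary TME library 9 (edgeR adjusted p up to 0.0707). These shares, and those below, are of counts divided by the length of merged exons.

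The kinesin-2 motors of cilia did not move as one. Kif3b (0.23 ± 0.06) and Kif3c (0.41 ± 0.11) were higher in cancer cells, while Kif3a, the partner of both in heterotrimers, was lower (-0.27 ± 0.06). Their shared adaptor Kifap3 was higher (0.41 ± 0.07). In all, 4 of 7 kinesin-1 and kinesin-2 genes were higher (57.1%) and 1 lower (14.3%), against 27.3% and 25.3% of all genes. Kif3b lost its call without sedentary TME libraries 4 and 6 (0.12 log2, edgeR adjusted p = 0.152) and in exercised libraries alone (0.08, 0.432). Kif3c was not called in sedentary libraries alone (0.17, edgeR adjusted p = 0.394). Its exons overlap those of 2 genes on the other strand by 3016 bases.

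Of 6 kinesin-3 genes, which carry vesicles over long distances, 4 were higher (66.7%) and 1 lower (16.7%). Over all genes the shares were 27.3% and 25.3%. Kif16b, a motor of early endosomes, stood at 0.42 ± 0.07, Kif1b at 0.30 ± 0.07, Kif13b at 0.29 ± 0.10 and Kif13a at 0.20 ± 0.06. Kif1a, known from neurons, was lower (-1.38 ± 0.30), at 0.151 to 1.02 CPM in sedentary cancer and 0.937 to 1.72 in sedentary TME cells. Kif13b was not called without sedentary TME library 4, 9 or 10 or exercised TME library 7 (edgeR adjusted p up to 0.124). It was also not called by DESeq2 (adjusted p = 0.0586), by limma voom (0.0506) or by edgeR with RLE size factors (0.0524). Kif13a was not called without sedentary TME library 6 or 10 (edgeR adjusted p up to 0.088). In sedentary and exercised libraries alone neither gene was called (edgeR adjusted p = 0.315 and 0.179 for Kif13b, 0.54 and 0.0826 for Kif13a).

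The remaining kinesins split, with 4 of 12 higher (33.3%) and 5 lower (41.7%), against 27.3% and 25.3% of all genes. Kif2a, a microtubule depolymerase, stood at 0.58 ± 0.08 and Kif24, a depolymerase at centrioles, at 0.65 ± 0.14. Exons of genes on the other strand overlap those of Kif2a by 1229, of Kif26b by 909 and of Kif7 by 928 bases. Kif26b and Kif21a were higher by 0.44 and 0.38, and Kif26b was not called in sedentary libraries alone (0.17, edgeR adjusted p = 0.346). Kif21a was not called in sedentary (edgeR adjusted p = 0.0545) or exercised libraries alone (0.051). On the other side, Kif19a, a length regulator of motile cilia, was lower, at -2.02 ± 0.34, as were Kifc2 (-0.87 ± 0.17) and Kif9 (-0.64 ± 0.20), the last not in sedentary libraries alone (edgeR adjusted p = 0.182). Kif7, a regulator of Hedgehog signalling in cilia, stood at -0.51 ± 0.16 and Kif21b at -0.18 ± 0.06. Kif19a had 0.153 to 0.738 CPM in sedentary cancer and 0.726 to 2.79 in sedentary TME cells, so the change concerns a scarce transcript. In exercised mice it had 0.196 to 1.45 CPM in cancer cells and 1.33, 5.31, 5.45 and 0.841 in TME libraries 7, 8, 9 and 10. Of 14 intraflagellar transport genes, the cargo trains of cilia, 4 were higher (28.6%) and 3 lower (21.4%), against 27.3% and 25.3% of all genes. Of 8 tested axonemal dynein heavy chains 2 were higher (25%) and 3 lower (37.5%).

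The heavy chain of cytoplasmic dynein had the smallest p of all motor genes in this contrast. Dync1h1 (chromosome 12, 110601452 to 110666945) had 632 to 763 CPM (median 685) in sedentary and 784 to 886 CPM (median 859.8) in exercised cancer cells. In TME cells it had 427, 455, 465 and 448 CPM in the sedentary libraries and 464, 479.7, 488 and 544 in the exercised ones. No TME library reached a cancer library, and the difference was 0.71 ± 0.05 log2 (edgeR adjusted p = 3.13e-11). The other chains of the same complex differed less. The light intermediate chain Dync1li1 stood at 0.25 ± 0.07, Dync1li2 at 0.05 ± 0.06 and the intermediate chain Dync1i2 at 0.01 ± 0.06, of which only Dync1li1 passed. Dync1li1 was not called without sedentary TME libraries 4 and 6 (0.13, edgeR adjusted p = 0.165). The neuronal intermediate chain Dync1i1 was at most 0.259 CPM in any library and was not tested.

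Dynein's partners went both ways, in shares near or under those of all genes (27.3% higher and 25.3% lower). Of 24 genes of dynactin and dynein adaptors 7 were higher in cancer cells (29.2%) and 5 lower (20.8%). Among them Actr10 stood at 0.56 ± 0.06, Nin at 0.66 ± 0.08 and Capzb at -0.51 ± 0.08. Of 10 tested light chain genes 2 were higher (20%) and 1 lower (10%), with a median of 0.01. In dynein-2, the motor that returns cargo within cilia, Dync2h1 was higher (0.63 ± 0.10) and its light intermediate chain Dync2li1 lower (-0.23 ± 0.09). The call on Dync2li1 was lost without any of 4 cancer libraries (exercised 4, 7 and 8 and sedentary 6, edgeR adjusted p up to 0.0576) and without both mitochondria-rich libraries (0.0526).

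Most non-muscle myosin II counts came from Myh9 in both sorts, and Myh10 was the form that differed. Per kilobase of merged exon, Myh9 had the highest level of all 92 genes in each group, at 61.2, 75.5, 71.7 and 68.5 CPM per kb in sedentary and exercised cancer and sedentary and exercised TME cells. Kif5b, Dync1h1 and Dync1i2 held the next 3 places in each group. In sedentary cancer cells Kif5b (45.7) and Dync1h1 (44.0) were within 1.71 CPM per kb of each other. Myh9 stood at -0.04 ± 0.09 log2 between the sorts and did not pass.

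Myh10 (chromosome 11, 68691559 to 68816632), the second non-muscle heavy chain, was higher in cancer cells by 0.50 ± 0.06 (edgeR adjusted p = 3.76e-08). It had 189 to 228 CPM (median 206) in sedentary and 237 to 278 CPM (median 249) in exercised cancer cells. In TME cells it had 166, 148, 201 and 163 CPM in the sedentary and 159, 157, 151 and 153 in the exercised libraries. The sorts overlapped in sedentary mice, where the difference alone was 0.23 (edgeR adjusted p = 0.0619), and not in exercised mice. By counts per kilobase, Myh10 made up 24.8% ± 3.72 (SD, n = 8) and 24.5% ± 2.59 (n = 7) of non-muscle myosin II in cancer cells. In TME cells its share was 18.5% ± 1.26 and 17.9% ± 1.72 (n = 4 each).

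The smooth muscle myosin Myh11 was lower in cancer cells (-1.47 ± 0.53, edgeR adjusted p = 0.0218), at no more than 1.98 CPM in any library. That highest value was in exercised TME library 7, and without it the value was -1.05 (edgeR adjusted p = 0.122). Without sedentary TME library 4 it was also not called (-1.25, 0.0634). None of 3 tested sarcomeric myosins passed, and their class summed to 0.739 to 4.35 CPM over all libraries. Of 15 light chain and regulator genes 6 were higher (40%) and 5 lower (33.3%), against 27.3% and 25.3% of all genes. The kinase Rock2 stood at 0.74 ± 0.06 and the smooth muscle light chain Myl9 at -3.34 ± 0.48. Of 9 pericyte and smooth muscle markers 7 were lower in cancer cells (77.8%), against 25.3% of all genes. Their part in the values of Myh11 and Myl9 was not tested.

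Class I myosins contained the widest differences of all motor genes. Myo1f and Myo1g are known from white blood cells. Myo1f (chromosome 17, 33555707 to 33607764) had 0.344 to 1.34 CPM (median 1.05) in sedentary and 0.730 to 2.42 CPM (median 1.54) in exercised cancer cells. In TME cells it had 12.9, 14.3, 21.9 and 12.8 CPM in sedentary libraries 4, 6, 9 and 10, and 11.5, 64.1, 65.3 and 17.0 in exercised libraries 7, 8, 9 and 10. Every TME library was above every cancer library, with a difference of -4.32 ± 0.28 log2 (edgeR adjusted p = 3.56e-11). Myo1g had 19.8, 20.8, 23.5 and 15.9 and 12.4, 64.0, 59.1 and 18.8 CPM in the same TME libraries and at most 4.92 in cancer cells, a difference of -3.67 ± 0.26 (edgeR adjusted p = 1.91e-10).

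The leukocyte marker sum was 423.0, 385.7, 463.8 and 354.2 CPM in the same sedentary TME libraries and 243.2, 1443, 1583 and 378.4 in the exercised ones, so both genes were high where the markers were. Their part in the difference was not tested. Other class I genes were higher in cancer cells or did not pass. Myo1d (0.42 ± 0.10) and Myo1e (0.32 ± 0.07) were higher in cancer cells, while Myo1c stood at -0.03 ± 0.05 and Myo1a at -0.16 ± 0.26 and did not pass.

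Over all libraries myosins V and VI, which carry vesicles, were higher in cancer cells, and Myo7a was lower. Myo5b, a motor of recycling endosomes in epithelia on chromosome 18, was higher by 1.54 ± 0.20 (edgeR adjusted p = 2.95e-07). Myo5b had 6.04 to 11.1 CPM (median 8.75) in sedentary and 8.49 to 19.8 CPM (median 11.7) in exercised cancer cells. In TME cells it had 8.53, 3.87, 4.88 and 2.77 CPM in the sedentary and 2.84, 1.25, 3.39 and 2.66 in the exercised libraries. Sedentary TME library 4, the one richest in mitochondrial transcripts, overlapped the cancer libraries, and the other TME libraries lay below all of them. In sedentary mice alone the difference was 0.72 and in exercised mice alone 2.22, and both passed.

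Myo5a was higher by 0.38 ± 0.08, Myo5c by 0.33 ± 0.11 and Myo6, the one minus-end myosin, by 0.32 ± 0.07. In exercised libraries alone Myo5a was not called (0.14, edgeR adjusted p = 0.446). Myo6 was not called in sedentary libraries alone (0.24, edgeR adjusted p = 0.0673) or exercised libraries alone (0.26, 0.0873). In sedentary libraries alone Myo5c stood at -0.0025. The call on Myo5c was lost without any 1 of 5 TME libraries (sedentary 4, 6 and 9 and exercised 7 and 9, edgeR adjusted p up to 0.057) and without both mitochondria-rich libraries (0.12). Myo7a (chromosome 7, 98051060 to 98119524), best known from hair cells and pigment epithelium, was lower, at -2.02 ± 0.17 (edgeR adjusted p = 1.62e-10). It had 2.77 to 5.12 CPM (median 3.77) and 2.72 to 3.82 CPM (median 3.46) in cancer cells and 7.53, 13.2, 10.9 and 11.1 CPM in sedentary and 10.2, 27.1, 32.5 and 9.12 in exercised TME libraries. The groups did not overlap, and its highest TME values fell in exercised libraries 8 and 9, as for Myo1f. Of the remaining unconventional myosins, Myo9a (0.57 ± 0.08), the filopodial motor Myo10 (0.38 ± 0.06) and the mitochondrial motor Myo19 (0.36 ± 0.09) were higher. These are 3 of 6 (50%), with none lower, against 27.3% and 25.3% of all genes. Myo19 was not called in exercised libraries alone (0.10, edgeR adjusted p = 0.573).

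Across all motor genes, 8 of 70 did not overlap between the sorts, 5 above and 3 below, against 9.26% of all genes, 4.05% above and 5.22% below. Among them were Dync1h1, Kif18a, Kif4 and Kif5b above and Myo1f, Myo1g and Myo7a below.

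**Figure D4:**
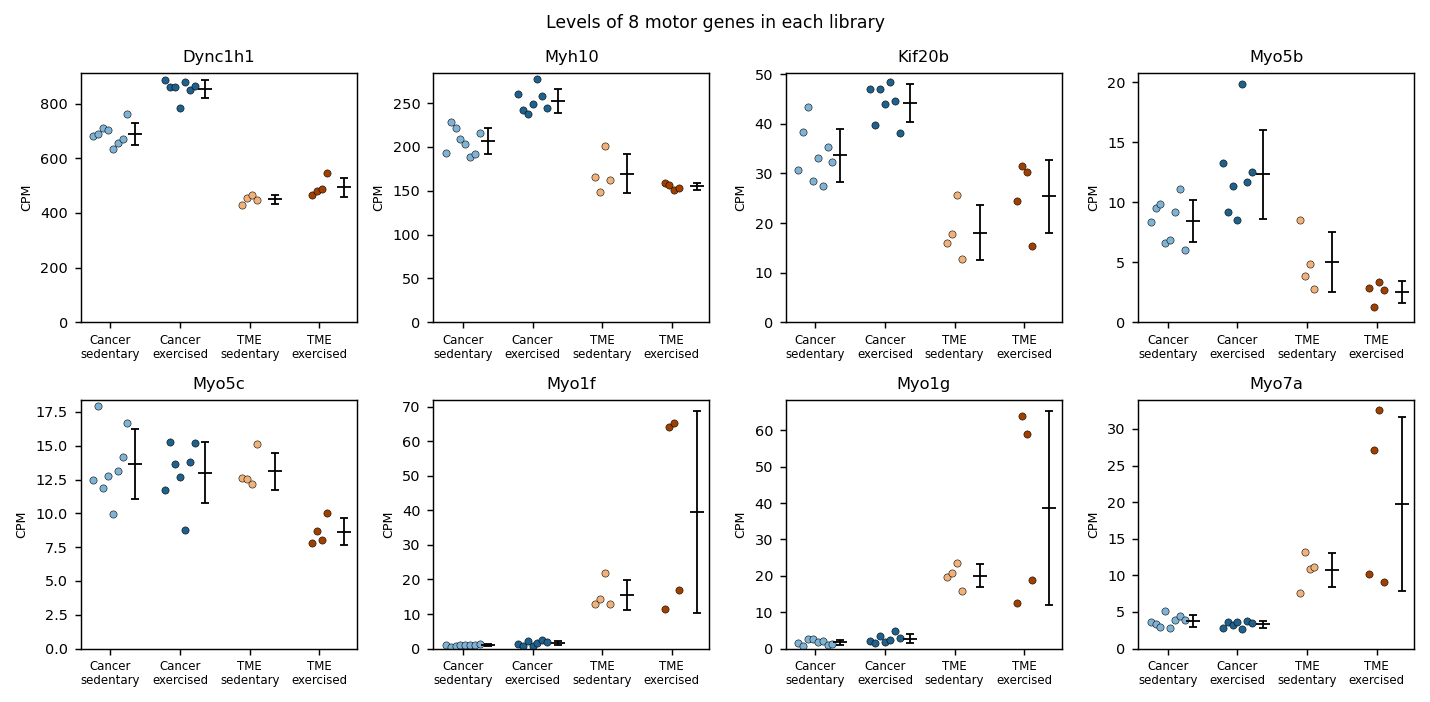
CPM of 8 motor genes in each of the 23 libraries, with the mean and SD of each group in black. Dync1h1 and Myh10 in exercised cancer cells lie above all sedentary cancer libraries, and Myo1f, Myo1g and Myo7a are highest in exercised TME libraries 8 and 9.

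The exercise comparison asked which motor genes differ between exercised and sedentary mice within a sort. In cancer cells no motor gene passed the threshold by edgeR, and most lay slightly above 0. Dync1h1 had the smallest p, and Myh10 and Kif20b followed. Of 66 tested motor genes 0 were called, as were 0% of all 15096 genes, while DESeq2 and limma voom each called 3, beside 0.935% and 1.3% of all genes. These were the same 3 genes in both, Dync1h1, Kif20b and Myh10, and they were also called by edgeR without sedentary cancer library 4, which then called 0.286% of all genes. At an unadjusted p under 0.05, 21 motor genes stood out (31.8%), 20 above 0 and 1 below, against 12.6% of all genes, 5.92% above and 6.67% below. With 1 library left out the 20 became 14 to 21, against 5.36% and 7.87% of all genes in these 2 fits. Of the 66, 53 lay above 0 (80.3%), against 47.4% of all genes, with a median of 0.10 log2 against -0.01.

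The 40 motor genes in the bin of longest genes had a median of 0.11, and 34 of them lay above 0, against 61.8% of that bin with a median of 0.04. The summed level of all 92 genes was 5478 to 6002 CPM in sedentary and 6273 to 6867 in exercised cancer libraries, without overlap, and 4723 to 5557 and 4866 to 5497 in TME libraries. In that sum long and abundant transcripts such as Dync1h1 and Myh9 weigh most.

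**Figure D5:**
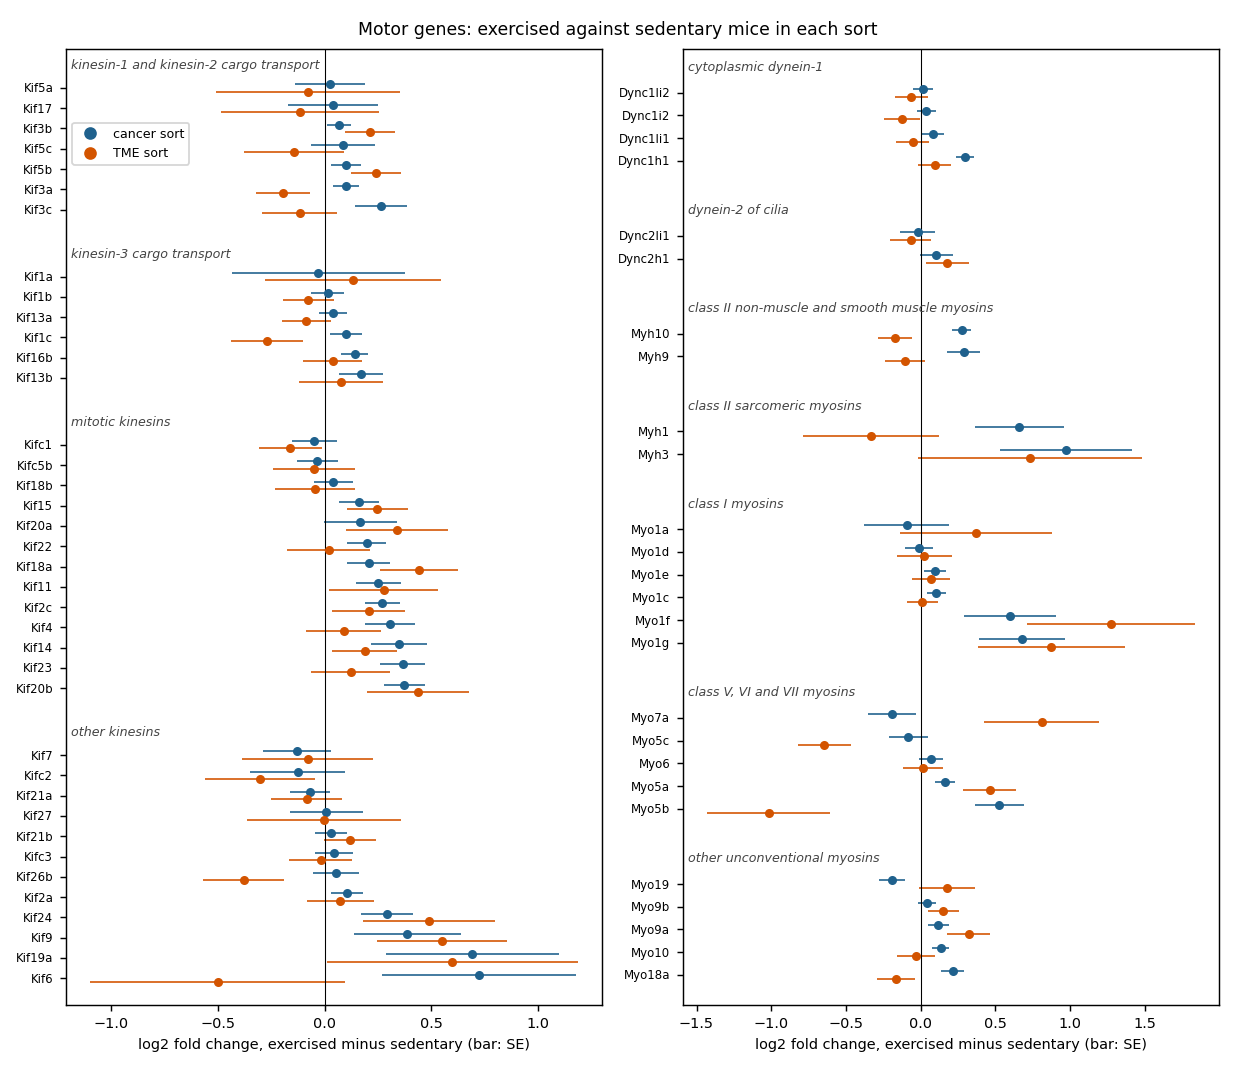
Log2 fold change of exercised minus sedentary mice with its SE for 64 motor genes tested in both sorts, by class, in the cancer sort (blue) and the TME sort (orange). No point passed an adjusted p of 0.05. Of the 64 genes shown, 52 lie right of 0 in the cancer sort.

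Dync1h1 in cancer cells ranged from 632 to 763 CPM in sedentary to 784 to 886 in exercised libraries, so the 7 exercised libraries lay above all 8 sedentary ones. The difference was 0.29 ± 0.06 log2 (edgeR adjusted p = 0.0804, DESeq2 0.000189, limma voom 0.0189). The other dynein-1 chains lay nearer 0, with 0.08 ± 0.07 for Dync1li1, 0.04 ± 0.06 for Dync1i2 and 0.02 ± 0.07 for Dync1li2. Light chain genes lay on the other side, with 8 of 10 below 0 and a median of -0.14. In TME cells 9 of 10 of them lay below 0, with a median of -0.23. Over all genes in cancer cells 47.4% lay above 0, and 35.8% in the bin of shortest genes, with a median of -0.09. The part of length was not tested. Among light chain genes in cancer cells Tctex1d2 stood at -0.32 ± 0.09 (edgeR adjusted p = 0.186). In dynactin and the adaptors 15 of 24 lay above 0, with the kinetochore adaptor Spdl1 at 0.46 ± 0.11 (edgeR adjusted p = 0.121) and Dctn4 at 0.23 ± 0.07. Dync2h1 had 0.11 ± 0.11 and Dync2li1 -0.02 ± 0.12.

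Myh10 showed the same pattern as Dync1h1 in cancer cells, with 189 to 228 CPM in sedentary and 237 to 278 in exercised libraries and no overlap. The difference was 0.28 ± 0.06 log2 (edgeR adjusted p = 0.104, DESeq2 0.00477, limma voom 0.0269). These are the 2 motor genes, both above, whose groups did not overlap, 3.03% of those tested, against 0.305% of all genes, 0.232% above and 0.0729% below. Myh9 had 631 to 1101 CPM (median 771) in sedentary and 838 to 1277 CPM (median 909.6) in exercised cancer cells, which overlapped, and stood at 0.29 ± 0.11 (edgeR adjusted p = 0.306). The share of Myh10 in non-muscle myosin II by counts per kilobase, given above, differed between treatments by less than its SD. Among regulators of myosin II the kinases Rock1 (0.22 ± 0.07), Rock2 (0.22 ± 0.07) and Cdc42bpb (0.20 ± 0.07) had the smallest p of their list and did not pass.

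The sarcomeric genes Myh1 (0.66 ± 0.30) and Myh3 (0.98 ± 0.44) are scarce. Myh1 had 0.475 to 1.65 CPM in sedentary and 1.04 to 3.73 in exercised cancer cells, the highest in exercised library 7, and Myh3 had 0 to 0.544 and 0.391 to 1.31. Skeletal muscle markers summed to 3.26 to 6.38 CPM in sedentary and 3.75 to 7.14 in exercised cancer cells. Reads of Myh1 and its close copies Myh2 and Myh4 may be shared.

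Mitotic kinesins made up 7 of the 20 motor genes at an unadjusted p under 0.05 above 0. These are 53.8% of the 13, against 5.92% of all genes. Of the 13, 11 lay above 0 (84.6%, against 47.4% of all genes), with a median of 0.21 log2. Kif20b had 27.4 to 43.5 CPM (median 32.7) in sedentary and 38.2 to 48.4 CPM (median 44.7) in exercised cancer cells, with overlap, and stood at 0.37 ± 0.10 (edgeR adjusted p = 0.13, DESeq2 0.0355, limma voom 0.0249). Kif23, a motor of the centralspindlin complex in cytokinesis, stood at 0.36 ± 0.11 (edgeR adjusted p = 0.187) and Kif2c, a depolymerase at centromeres, at 0.27 ± 0.08 (edgeR adjusted p = 0.208). The paralogues Kifc1 and Kifc5b had -0.05 and -0.03. Of the other G2 and M phase genes 21 of 24 lay above 0 with a median of 0.18, led by Hmmr (0.48 ± 0.10, edgeR adjusted p = 0.0804). In exercised library 10 the mitotic kinesins summed to 588.1 CPM, below 6 of the 8 sedentary libraries, and the G2 and M phase genes to 3338. Sedentary library 4, with 803.3 CPM of mitotic kinesins, was above exercised libraries 2, 4, 5 and 10, so the groups overlapped.

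Transport kinesins lay close to 0 in cancer cells. All 7 kinesin-1 and kinesin-2 genes had values above 0, from 0.03 to 0.26, with Kif3c at 0.26 ± 0.12 and Kif3a at 0.10 ± 0.06. Kif5b stood at 0.10 ± 0.07. In kinesin-3, Kif16b had 0.14 ± 0.06 and Kif13b 0.17 ± 0.10. Among other kinesins Kif24 had 0.29 ± 0.12, and the scarce Kif19a and Kif6 had 0.69 ± 0.40 and 0.72 ± 0.45.

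Unconventional myosins in cancer cells were led by Myo5b. The 7 exercised libraries had 8.49 to 19.8 CPM (median 11.7) against 6.04 to 11.1 CPM (median 8.75) in sedentary ones, which overlapped, and the difference was 0.53 ± 0.17 log2 (edgeR adjusted p = 0.219). The highest value came from exercised library 7, and without it the difference was 0.38. Myo5a stood at 0.16 ± 0.07, Myo18a at 0.22 ± 0.08 and Myo10 at 0.13 ± 0.06, while Myo19 had -0.19 ± 0.09. Myo1g (0.68 ± 0.29) and Myo1f (0.60 ± 0.31) also lay above 0 in cancer cells at a low level. Exercised library 8 had the highest Myo1f, Myo1g and leukocyte marker sum (112.7 CPM) of all cancer libraries, and sedentary library 3 the lowest (28.1 CPM for the markers). Of 10 leukocyte markers 9 lay above 0. The part of leukocytes in these values was not tested.

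In TME cells no motor gene passed by edgeR, DESeq2 or limma voom, and the values spread to both sides. Of 67 tested 0 were called, as were 0% of all 16273 genes, with 5 at an unadjusted p under 0.05 by edgeR (7.46%), 3 above 0 and 2 below, against 8.44% of all genes, 4.93% above and 3.51% below. Of the 67, 37 lay above 0 (55.2%), against 51.3% of all genes, and the median was 0.02 log2, against 0.01. The self-test on simulated counts with these means recovered 10% of genes changed 1.5-fold and 62% of those changed 2-fold in this comparison, so changes of the size seen in cancer cells would mostly not be called here.

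Myo5c had the smallest p. It had 12.6, 12.5, 12.1 and 15.1 CPM in the sedentary and 7.79, 8.72, 8.05 and 10.01 in the exercised libraries, which did not overlap, and stood at -0.65 ± 0.18 log2 (edgeR adjusted p = 0.586). Myo5b lay below 0 too, at -1.02 ± 0.41, and without sedentary library 4 at -0.62. All 9 endothelial markers lay below 0 as well, with a median of -1.08 and 3 at an unadjusted p under 0.05. They summed to 776.1, 414.3, 455.5 and 449.2 CPM in the sedentary and 414.0, 289.1, 343.2 and 462.4 in the exercised libraries. Sedentary library 4 was the highest in this sum and in Myo5b. Exercised library 10 was above all sedentary libraries but library 4 in the sum and below all of them in Myo5c. The sum rests mainly on Flt1, at an average of 8.39 log2 CPM, with Cdh5 next at 3.96. It was 291.1 to 365.8 CPM in sedentary and 306.0 to 443.0 in exercised cancer libraries. Yet 8 of the 9 markers were lower in cancer than in TME cells, with a median of -4.01 log2. The sum therefore does not follow most of these markers. The part of these markers in the values of Myo5b and Myo5c was not tested. Myo5a stood at 0.46 ± 0.18, with 111, 186, 246 and 163 CPM in exercised libraries 7, 8, 9 and 10 against 115 to 131 in sedentary ones, the highest in libraries 8 and 9. By counts per kilobase, Myo5a made up 81.6% ± 2.58 of class V myosin in sedentary and 90.6% ± 2.81 in exercised TME cells (SD, n = 4 each). Myo5c made up 13.3% ± 1.74 and 7.25% ± 2.06.

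Kif5b was the other gene whose TME groups did not overlap, with 197 to 249.6 CPM in sedentary and 255 to 304 in exercised libraries (0.24 ± 0.12, edgeR adjusted p = 0.589). In all, 2 of 67 motor genes did not overlap, 1 in each direction, against 3.61% of all genes, 1.98% above and 1.63% below. Kif18a stood at 0.44 ± 0.18 and Myo9a at 0.32 ± 0.15. Dync1h1 (0.09 ± 0.11) and Myh10 (-0.17 ± 0.11) were within 2 SE of 0.

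Myo1f, Myo1g and Myo7a in the exercised TME were high in 2 of 4 libraries. Myo1f stood at 1.27 ± 0.56 (edgeR adjusted p = 0.588), Myo1g at 0.87 ± 0.49 and Myo7a at 0.81 ± 0.38. For each of the 3 genes exercised libraries 8 and 9 had the highest values, whereas libraries 7 and 10 lay within or near the sedentary range. Macrophage markers summed to 2734 and 3107 CPM in libraries 8 and 9 and to 505.1 and 624.6 in libraries 7 and 10, against 637.5 to 839.1 in sedentary libraries. All 10 leukocyte and all 10 macrophage markers lay above 0, and none passed. Their part in the values of these myosins was not tested.

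The difference between both exercise effects was tested directly, as cancer minus TME, and no motor gene passed by edgeR, DESeq2 or limma voom. Of 70 tested 0 were called, as were 0% of all 17503 genes, with 10 at an unadjusted p under 0.05 by edgeR (14.3%), 9 above 0 and 1 below, against 7.52% of all genes, 3.34% above and 4.18% below. Myh10 (0.47 ± 0.11 log2, edgeR adjusted p = 0.464) and Myo5b (1.55 ± 0.38, edgeR adjusted p = 0.464) were ranked 8 and 12 by p among all genes. For both, all 7 exercised cancer libraries were above the sedentary mean of their sort and all 4 exercised TME libraries below that of theirs. Kif3a was the third gene with this pattern, of 66 compared (0.32 ± 0.12, edgeR adjusted p = 0.577).

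The remaining 7 were Myo18a (0.40 ± 0.13), Myo7a (-0.99 ± 0.35), which alone lay below 0, Myo5c (0.58 ± 0.22) and 4 others. Kif1c had 0.39 ± 0.16, Myh9 0.42 ± 0.18 and Kif26b 0.45 ± 0.20. Dync1h1, the last of them with 0.22 ± 0.11, lay above 0 in both sorts. For mitotic kinesins 0 of 13 had an unadjusted p under 0.05, with values on both sides of 0, among them Kif20b at -0.04 ± 0.23. Of myosin II regulators Ppp1r12a, the targeting subunit of the myosin phosphatase, had the smallest p (0.68 ± 0.18, edgeR adjusted p = 0.464).

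Genes under the filter were nearly silent in these tumours. They include Kif12, Kif26a, the class I gene Myo1h, Myo7b, Myo3a, Myo3b, Myo15, Myo16 and Myo18b, the intermediate chain Dync1i1 and the sarcomeric genes Myh2, Myh4, Myh7, Myh8, Myh13 and Myh15. Kif26a, which was chosen after its values were seen, reached 3.90 CPM in sedentary TME library 4, one of the mitochondria-rich libraries, and was at most 0.298 in exercised TME and 0.205 in cancer libraries. The kinesin-binding protein gene Kif1bp stood at 0.13 ± 0.06 between the sorts and did not pass.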

How the data were processed

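RNA was extracted with Trizol and made into libraries with a KAPA mRNA kit, per the labels' protocols. The authors deposited whole-number read counts per gene symbol, and STAR, featureCounts and mm10 are named in the submitters' processing notes. For tool versions and strandedness of counting, values were not given in the sources used here, so genes whose exons overlap on opposite strands cannot be told apart. Counts were tested with edgeR 4.0.16 (R 4.3.3), using TMM factors, filterByExpr, robust quasi-likelihood fits within the libraries of each contrast and Benjamini-Hochberg adjustment over all genes at 0.05. The SE is the log2 fold change divided by the root of F, and fits were tested on simulated counts. DESeq2 1.42.0 and limma 3.58.1 (voom with quality weights) were alternatives.

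Exon lengths and coordinates came from GENCODE M21 on GRCm38, by symbol, for 46467 of 48397 symbols, and promoters from RefSeq. The motor genes, gene lists and tests were chosen with earlier results of these data known. In each contrast the text names Dync1h1, Myh10 and Myo5b and, per class, up to 4 higher and 4 lower called genes with the smallest p, or the 3 smallest p where none was called. Genes named beyond that complete a class or were chosen after their values were seen. Replicates differed beyond counting noise, and no 2 libraries were duplicates. 1 gene that counts here as tested is not reported by name.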

Additional observations from a re-analysis of the deposited data

Results flagged for a closer look

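In 18 of 280 gene and group pairs 1 library stood apart from the rest of its group by Dixon's ratio, which chance gives in about 1 of 20. In exercised cancer cells Dync1h1 had 784.3 CPM in library 5, under the next value of 848.0, while still above all sedentary libraries. Myo5b had 19.8 CPM in exercised cancer library 7, where the next was 13.3, and Myh1 had 3.73 in the same library. Kif18a had 20.8 and Kif2a 102.4 CPM in exercised cancer library 10, the lowest of their group. In sedentary cancer cells the highest values were 139.97 CPM for Kif2a in library 4, 61.0 for Kif3a in library 7, 16.9 for Kifc5b in library 5 and 4.86 for Kif27 in library 6, and the lowest of Kifc3 was 51.9 in library 6.

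In the TME, sedentary library 9 had the highest Kif20a (82.4 CPM), Kif22 (47.7) and Myo1f (21.9) and the lowest Kif5c (7.05). Sedentary TME library 10 had the highest Myo5c (15.1), exercised library 7 the highest Myh11 (1.98) and Myh3 (1.47), and exercised library 10 the highest Myo6 (92.3).

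The exercise effect had opposite signs in the sorts, with all 7 exercised cancer libraries above and all 4 exercised TME libraries below the sedentary mean, for 3 of 66 genes. The difference of effects, cancer minus TME, was 0.32 ± 0.12 log2 for Kif3a (edgeR adjusted p = 0.577), 0.47 ± 0.11 for Myh10 and 1.55 ± 0.38 for Myo5b (both edgeR adjusted p = 0.464), so none passed.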

How the results depend on the processing

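The exercise effect in cancer cells is the result that turned on the tool, with 0 motor genes called by edgeR, 3 by DESeq2, 3 by limma voom and 0 to 3 when 1 library was left out, the 3 without sedentary cancer library 4. DESeq2 then called 146 genes in all, limma voom 197 and edgeR without that library 43. At an unadjusted p under 0.05 the replicate block left 4 motor genes above 0 (6.06%, against 1.56% of all genes) instead of 20 (30.3%, against 5.92%). This block pairs sedentary and exercised libraries by number, and libraries with an unshared number add nothing to the effect. Same-numbered cancer libraries correlated by -0.066 to 0.093, and none was the best match of its number, so the block need not reflect real pairs. In TME cells the count above 0 was 3 (4.48%, against 4.93% of all genes). It was 10 with all libraries in 1 fit (14.3%, against 9.41%), 12 with limma voom (17.9%, against 11.8%), 1 without the mitochondria-rich libraries (1.45%, against 3.24%) and 0 to 9 when 1 library was left out (0% to 13.4%, against 3.18% and 5.26%).

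In the contrast of the sorts 48 of 70 motor genes were called, beside 52.6% of all genes. Sedentary libraries alone gave 31 of 66 (29 of the 48, with 21 higher), beside 38.7%, with fewer libraries fitted. The exercised libraries alone gave 36 of 66, beside 39.5%, and the replicate block 40 of 70, beside 42%. DESeq2 gave 49, beside 42.7%, limma voom 47 of 70, beside 54.1%, and RLE size factors 48 of 70, beside 52%. Leaving out 1 library gave 46 to 51, with 33 to 38 higher and 11 to 15 lower, beside 48.2% to 54% of all genes called. The replicate block ended the calls of Dync1li1, Kif13a, Kif21b, Kif5c, Kif9, Myh11, Myo19 and Myo5c. The 19 calls lost in sedentary libraries alone include Myh10, and the 12 lost in exercised libraries alone include Myo5a and Myo6. RLE moved the split of all called genes from 4773 higher and 4428 lower to 4193 and 4905.

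The signs of some single genes turned, and the cause was not tested. In cancer cells Dync2li1 was 0.017 with all libraries in 1 fit, 0.0046 without a filter and -0.098 to 0.032 when 1 library was left out. In TME cells Dync1li2 was 0.016 without the mitochondria-rich libraries, 0.045 with the replicate block and -0.10 to 0.028 with 1 library out. Dync2li1 was 0.0013 without the mitochondria-rich libraries, and Myo1a ran from -0.056 to 0.76. With the replicate block Kif1b was 0.056, Myh11 -0.078 and Myh3 -0.14. Between the sorts Myo5c was -0.0025 in sedentary libraries alone. For the difference of exercise effects, limma voom gave 0.061 for Dync2h1 and 0.79 for Myh7b, the replicate block gave 0.46 for Myh7b and 0.10 for Myo1f, and Dync2li1 was -0.0058 without the mitochondria-rich libraries. With 1 library out, Dync2h1 ran from -0.18 to 0.041, Dync2li1 from -0.021 to 0.12, Kif24 from -0.35 to 0.0095 and Myh3 from -0.29 to 0.73.

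The labels give the groups shared replicate numbers. Between sorts, same-numbered libraries correlated by -0.06 to 0.05 in the 4 sedentary pairs. In the 3 exercised pairs the values were 0.144, 0.244 and 0.178, each the best match of its number. Sedentary numbers 9 and 10 were also best matches, at 0.027 and 0.05, and 4 and 6 were not. Since not every pair of this contrast was over 0.1, the fit without a block was kept. These correlations do not settle whether a number marks 1 mouse in both sorts. If it does, the fit with the block is the paired one, and the calls it ended are listed above. Simulated 1.5-fold exercise changes were recovered in 10% of genes with the 4 libraries a group of the TME, against 64% in cancer cells. Depth was 16307545 to 37388479 counts in TME and 15924340 to 25563245 in cancer libraries, and its part in the recovery was not tested.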
